A study of Mus musculus with 24 samples.

Results

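The resistin family of the mouse comprises 4 genes that encode small, cysteine-rich secreted proteins: Retn (resistin), Retnla (resistin-like alpha), Retnlb (resistin-like beta) and Retnlg (resistin-like gamma). The 4 genes are described here on arrays of sorted vascular endothelial cells and were found through the sequence accession of each array probe. They accounted for 6 of 41174 probes and for 4 of the 18539 gene symbols on the array: Retn and Retnla had 2 probes each, Retnlb and Retnlg 1 each. For each gene the probe with the highest mean signal in the tissue was used, which for Retn and Retnla was the same probe in aorta and muscle. The family was chosen by the diet ratios of Retnla, which were known from earlier work on these arrays, so the differences between diets are given as a description. The calls over all probes in those comparisons are printed as background, and no test of a member is read from them.

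Resistin was described in the mouse as a hormone of white adipocytes that opposes insulin action, and it is known to raise adhesion molecules and chemokines in cultured endothelial cells. Retnla, also called RELMα, FIZZ1 or HIMF, is secreted by alternatively activated macrophages, where interleukin-4 and interleukin-13 induce it through the transcription factor STAT6. Retnlb is a product of intestinal goblet cells, and Retnlg is made mainly in bone marrow and by neutrophils.

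The study asked how a high fat diet changes the transcriptome of endothelial cells in male C57BL/6 mice (WT) and in mice lacking galectin-3 (KO, the strain B6.Cg-Lgals3 tm1Poi/J). From 8 weeks of age both strains received either a diet with 60% of calories from fat (HFD) or chow with 12% (chow), for 8 weeks. Live cells positive for CD105 and negative for the leukocyte antigen CD45 were sorted from the aorta, taken between its root and the iliac bifurcation, and from hindlimb skeletal muscle (plantaris, gastrocnemius and biceps femoris). Each of the 24 one-colour arrays measured RNA of about 10000 sorted cells pooled from 3 to 4 mice, and each of the 8 groups of tissue, strain and diet held 3 arrays, 1 from each of 3 experiments. The knockout is of the whole animal, so it was carried by all cell types that a sort could hold. The arrays of experiment 1 were scanned in a session of their own, and each slide held the 4 arrays of 1 tissue and 1 experiment.

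A level below is the log2 of the processed signal of a probe minus the log2 of the 75th percentile of its array, so that 0 is the signal at that percentile. The 75th percentile lay between 2390.4 and 5937.9 intensity units over the 24 arrays, between 59.6% and 75.7% of probes were well above background, and 0 member spots were saturated. All 14 endothelial marker genes were well above background on all 24 arrays, and the 10 fibroblast marker genes on all 12 aorta arrays. In units of the 75th percentile of the array, the fibroblast list summed to between 324.5 and 737.1 in aorta and between 25.3 and 230.7 in muscle, and the skeletal muscle fibre list to between 1.19 and 7.45 in aorta and between 25.5 and 177.3 in muscle. The single Lgals3 probe was well above background on all 24 arrays and higher in KO in 11 of 12 matched pairs, and whether it lies inside the deleted part of the gene was not known here, so it did not check the genotype labels. A further 20 probes that separate the strains were placed on a scale from 0 for WT to 1 for KO. The probes were picked, and the scale was set, on the arrays outside experiment 1. Those arrays therefore lie near 0 or 1 by construction. The chow arrays of experiment 1, which set neither, lay at 0.066 (WT aorta), 0.889 (KO aorta), 0.075 (WT muscle) and 0.916 (KO muscle). The 4 HFD arrays of experiment 1 lay at 0.262 (WT aorta), 0.425 (KO aorta), 0.380 (WT muscle) and 0.453 (KO muscle). Over all arrays but those 4 HFD arrays, WT lay between −0.047 and 0.075 and KO between 0.889 and 1.05. Differences of Retn and Retnla that use those 4 arrays are therefore also given without experiment 1, whereas the counts over gene lists are from all 3 experiments.

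Of the 4 members, 3 have their promoter in the RefSeq table used here (mouse build GRCm38.p6), and the 250 bases before each annotated start are shown because those of Retnla and Retnlg share much of their sequence and that of Retn does not. Capitals mark matches to 3 short patterns, searched on both strands: TTCNNNNGAA, the form that STAT6 binds; TTGCNNAA, a form bound by C/EBP factors; and TATAAA, the TATA box. The windows are chr8:3655520-3655769 for Retn, chr16:48842359-48842608 for Retnla and chr16:48872358-48872607 for Retnlg, each on the plus strand.
Retn: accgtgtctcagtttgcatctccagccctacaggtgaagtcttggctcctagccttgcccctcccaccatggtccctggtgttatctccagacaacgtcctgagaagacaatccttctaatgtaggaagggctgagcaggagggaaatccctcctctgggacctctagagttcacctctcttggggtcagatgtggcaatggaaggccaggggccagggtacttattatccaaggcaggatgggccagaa
Retnla: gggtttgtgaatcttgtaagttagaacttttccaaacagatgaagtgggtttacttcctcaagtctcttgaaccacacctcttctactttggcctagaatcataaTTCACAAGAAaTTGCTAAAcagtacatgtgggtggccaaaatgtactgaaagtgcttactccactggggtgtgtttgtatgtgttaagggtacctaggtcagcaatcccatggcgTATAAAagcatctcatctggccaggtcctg
Retnlg: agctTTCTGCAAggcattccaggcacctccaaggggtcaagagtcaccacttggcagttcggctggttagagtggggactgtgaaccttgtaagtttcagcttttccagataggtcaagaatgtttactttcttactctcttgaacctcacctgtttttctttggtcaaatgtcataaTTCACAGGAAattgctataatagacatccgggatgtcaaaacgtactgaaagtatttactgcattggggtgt
The Retnla window held the STAT6-type match TTCACAAGAA at position −145 relative to the start, the C/EBP-type match TTGCTAAA at −134 and a TATA box at −30, with no overlap among them. The Retnlg window held the STAT6-type match TTCACAGGAA at −72 and a C/EBP-type match on the minus strand at −246, and no TATAAA. The Retn window held none of the 3 patterns as spelled. Over 32851 windows of the same length, the STAT6-type pattern was present in 5.85%, the C/EBP-type pattern in 9.56% and TATAAA in 12.4%. A match is a string of letters and was not tested as a binding site. A local alignment of the Retnla and Retnlg windows spanned 178 columns, of which 138 (77.5%) were identical. It paired bases 1 to 177 of the Retnla window with bases 75 to 250 of the Retnlg window. Both STAT6-type matches lay inside it, at bases 106 to 115 and 179 to 188. The Retnla TATA box (bases 221 to 226) lay beyond it, so the Retnlg window did not cover a counterpart of that stretch. The alignment of Retn with Retnla spanned 11 columns and that of Retn with Retnlg 17. Retnlb, Retnla and Retnlg are neighbouring genes on chromosome 16 (48816856 to 48818892, 48842609 to 48844461 and 48872608 to 48874498), and Retn lies on chromosome 8 (3655770 to 3659818). The promoter of Retnlb was not used here.

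Detection differed widely within the family. Retnla was well above background on all 24 arrays and Retn on 23 of 24, the exception being the WT HFD muscle array of experiment 3. Retnlg was well above background on 7 of 24 arrays, 1 from aorta and 6 from muscle, and Retnlb on 2 of 24, both from aorta. Only Retn and Retnla passed the filter for the tests, which required that, within 1 group or more, each array showed a probe well above background; the 2 members that did not pass are described by their signals on single arrays. The 2 probes of Retn gave correlated levels over the 24 arrays (r = 0.98, largest gap 1.55 on the log2 scale), as did the 2 probes of Retnla (r = 1.00, largest gap 0.67).

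**Figure D1:**
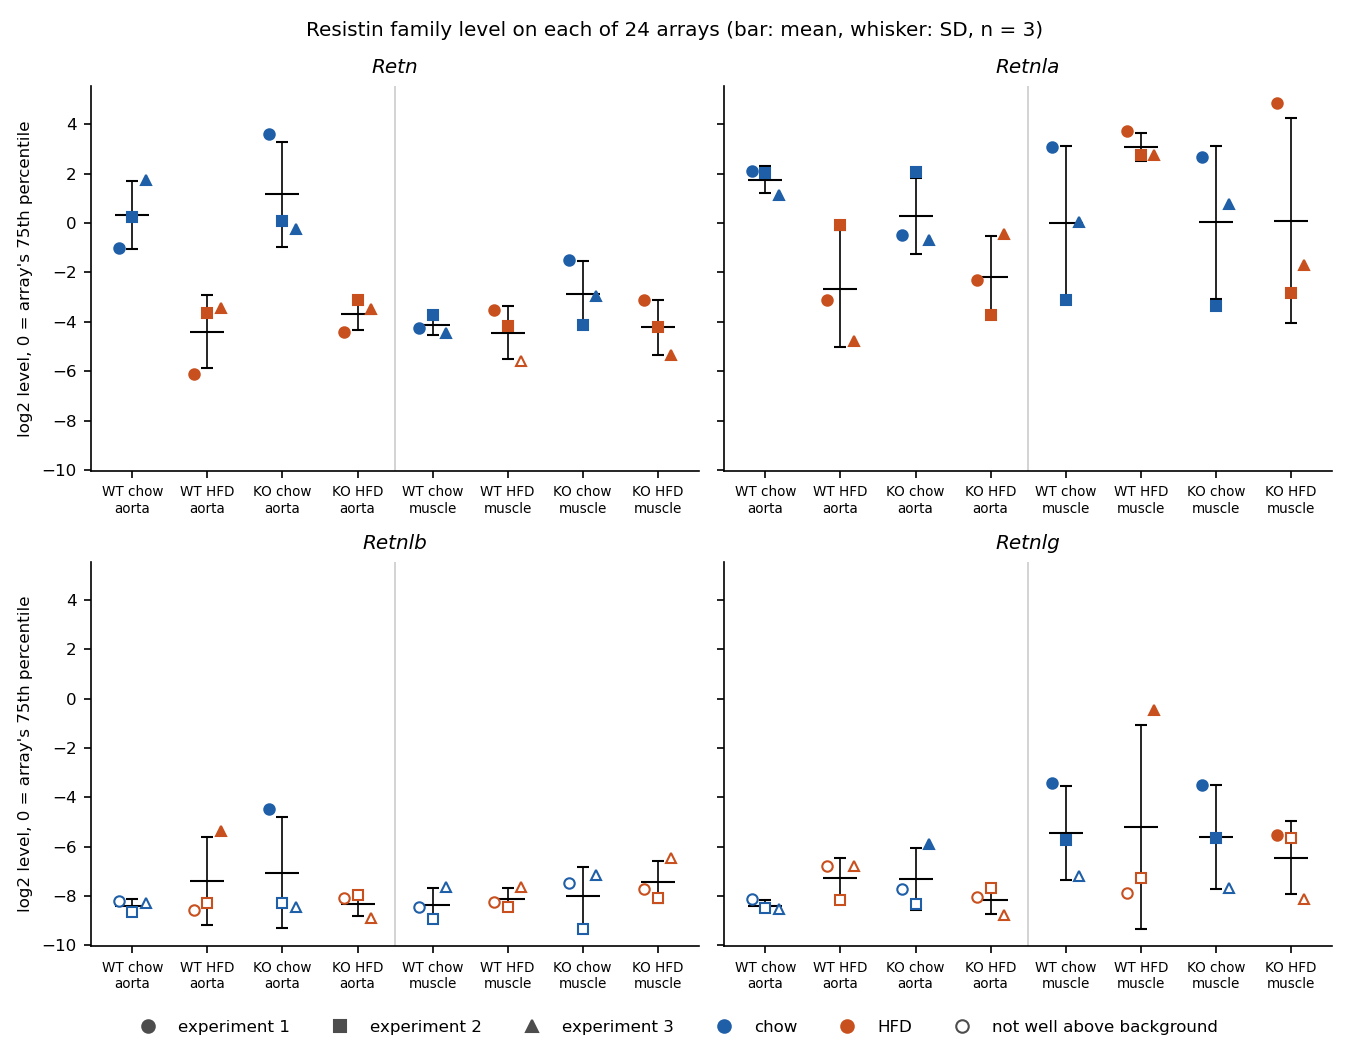
Log2 level of each resistin family member relative to the 75th percentile of the array (y axis) in the 8 groups of tissue, strain and diet (x axis), 1 point per array and experiment; open points were not well above background bars are group means and whiskers the SD (n = 3). Retn was highest on the 6 chow aorta arrays, Retnla spread widely in chow muscle, and Retnlg stood out on 1 WT HFD muscle array.

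Retn, the adipocyte hormone, was high in endothelial sorts from the aorta of chow mice and low in every other group. In WT chow aorta its level was −0.99, 0.26 and 1.77 in experiments 1, 2 and 3, and in KO chow aorta 3.62, 0.11 and −0.23. In WT HFD aorta it was −6.11, −3.65 and −3.44, and in KO HFD aorta −4.41, −3.12 and −3.48. All 6 chow arrays of the aorta lay above all 6 HFD arrays, as for 141 of 25542 probes (0.552%), with the KO chow array of experiment 1 the highest and the WT HFD array of experiment 1 the lowest. Muscle showed no such separation: Retn was −4.24, −3.72 and −4.46 in WT chow muscle and −3.53, −4.17 and −5.60 in WT HFD muscle. It was −1.51, −4.15 and −2.94 in KO chow muscle and −3.13, −4.21 and −5.33 in KO HFD muscle. The muscle groups overlapped between diets, and the KO chow array of experiment 1 was the highest of the 12 muscle arrays.

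Ordered by group mean, Retn ran from KO chow aorta (1.16 ± 2.14, SD, n = 3) and WT chow aorta (0.34 ± 1.38) through KO chow muscle (−2.86 ± 1.32), KO HFD aorta (−3.67 ± 0.67), WT chow muscle (−4.14 ± 0.38), KO HFD muscle (−4.23 ± 1.1) and WT HFD aorta (−4.40 ± 1.48) to WT HFD muscle (−4.43 ± 1.06). The step from WT chow aorta to KO chow muscle was the single gap between neighbours that was larger than the SDs of both. All other neighbours in this order differed by less than their spread.

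Within experiments, Retn was lower on HFD than on chow by a log2 difference of −5.12, −3.91 and −5.21 in WT aorta, a mean of −4.74 ± 0.72 (SD, n = 3) or 26.8-fold. In KO aorta the differences were −8.04, −3.23 and −3.24, a mean of −4.84 ± 2.77 or 28.6-fold. The other Retn probe gave smaller means, −3.79 ± 1.07 (13.9-fold) in WT aorta and −4.14 ± 2.69 (17.65-fold) in KO aorta. On the WT HFD aorta array of experiment 1 that probe read −4.56, against −6.11 for the probe used. Both strains thus had lower Retn on HFD in each experiment, and the KO mean rested in part on experiment 1; without it the mean was −3.24 in KO aorta and −4.56 in WT aorta. Retn was 1 of the 934 probes of 25752 measured (3.63%) with all 3 HFD arrays below all 3 chow arrays in WT aorta, and 1 of 1776 of 25616 (6.93%) in KO aorta. In muscle the differences were 0.71, −0.45 and −1.14 in WT (mean −0.29 ± 0.93) and −1.62, −0.07 and −2.39 in KO (mean −1.36 ± 1.18). On this probe WT muscle had both signs and KO muscle had 1 sign with a near-zero value in experiment 2. The other Retn probe had both signs in KO muscle as well (−1.15, 0.72 and −2.03). Without experiment 1 the means on the probe used were −0.79 in WT and −1.23 in KO. In these sorted bulk samples, fewer cells of a type and less RNA per cell cannot be told apart.

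Retnla, the macrophage-derived member, was lower on HFD in each experiment in WT aorta and higher in each in WT muscle. In WT chow aorta its level was 2.11, 2.03 and 1.15, and in WT HFD aorta −3.10, −0.09 and −4.78, so that the groups did not overlap, as for the 3.63% of probes given above. In KO chow aorta it was −0.48, 2.07 and −0.69, and in KO HFD aorta −2.32, −3.74 and −0.43, with the HFD array of experiment 3 above 2 of the chow arrays. In WT muscle it was 3.08, −3.10 and 0.06 on chow and 3.74, 2.75 and 2.77 on HFD, and the chow array of experiment 1 lay among the HFD arrays. In KO muscle it was 2.69, −3.37 and 0.76 on chow and 4.85, −2.83 and −1.70 on HFD, the widest group of the 8. In muscle Retnla differed between experiments: the 4 muscle arrays of experiment 1 lay between 2.69 and 4.85, those of experiment 2 between −3.37 and 2.75, and those of experiment 3 between −1.70 and 2.77.

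The order of group means for Retnla differed from that for Retn. It ran from WT HFD muscle (3.09 ± 0.57, SD, n = 3) and WT chow aorta (1.76 ± 0.53) through KO chow aorta (0.30 ± 1.54), KO HFD muscle (0.10 ± 4.15), KO chow muscle (0.03 ± 3.09) and WT chow muscle (0.01 ± 3.09) to KO HFD aorta (−2.16 ± 1.66) and WT HFD aorta (−2.66 ± 2.38). WT HFD muscle exceeded its neighbour by 1.32, more than the SD of either group. The other neighbours differed by less than the larger of their SDs.

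The differences between HFD and chow within experiments for Retnla, whose ratios chose the family, were −5.21, −2.12 and −5.93 in WT aorta, and WT HFD aorta lay 21.4-fold below chow. In KO aorta they were −1.84, −5.81 and 0.26, and in KO muscle 2.16, 0.53 and −2.46, so KO had both signs in both tissues. In WT muscle they were 0.66, 5.85 and 2.71, and 4424 of 25553 probes (17.3%) were likewise higher on HFD in all 3 experiments. Without experiment 1 the means were −4.03 in WT aorta, −2.78 in KO aorta, 4.28 in WT muscle and −0.97 in KO muscle, the last with the sign turned from a mean over all 3 experiments of 0.08.

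**Figure D2:**
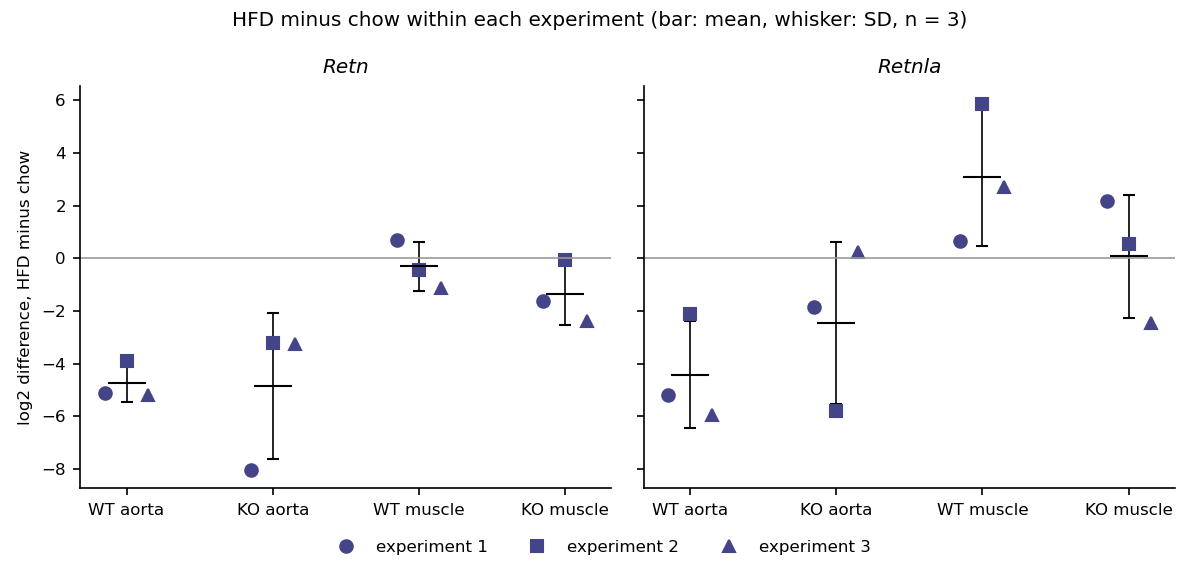
Log2 difference between HFD and chow (y axis) for Retn and Retnla in aorta and muscle of WT and KO mice, 1 point per experiment, with a bar at the mean and whiskers of 1 SD (n = 3). Retn lies between −8.04 and −3.23 in the aorta, and Retnla has both signs in KO.

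For the diet comparisons, limma with Benjamini-Hochberg adjustment called 0 of 25829 probes (0%) in WT aorta, 0 (0%) in KO aorta, 0 of 25640 (0%) in WT muscle and 1 (0.0039%) in KO muscle; 0 members were among them, and nothing is read from this for the family. The probe called in KO muscle was that of Cyp2e1, a cytochrome P450 on the adipocyte list (−5.33 ± 0.27 SE, limma adjusted p = 0.0066), named after its value was seen. Its mean level in KO HFD muscle was −7.11, below the lowest level well above background on those arrays (−6.20, −5.97 and −5.95). It was well above background on 9 of the 12 muscle arrays, so the size of the difference rests on a signal near background. At an unadjusted p below 0.05 there were 1487, 2905, 3098 and 2179 probes. The methods' t-test on the same values gave 1218, 1732, 2117 and 1287 probes at that level and 0 after adjustment in all 4.

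No difference between KO and WT was called for either gene that could be tested, although Retnla in HFD muscle was lower in KO in experiments 2 and 3. For Retn the difference KO minus WT was 0.82 ± 1.07 (SE, 3 against 3 arrays) in chow aorta, 0.73 ± 1.07 in HFD aorta, 1.28 ± 0.74 in chow muscle and 0.21 ± 0.74 in HFD muscle. For Retnla it was −1.46 ± 1.18, 0.49 ± 1.18, 0.01 ± 2.12 and −2.98 ± 2.12 in the same order. Within experiments 1, 2 and 3 the Retnla difference was −0.39, −0.26 and 0.70 in chow muscle and 1.11, −5.58 and −4.48 in HFD muscle. With the experiment as a replicate block the SE in muscle was 1.19 for Retnla and 0.57 for Retn, and no call changed. A difference that misses the threshold does not show that the strains were alike. 0 members were called by limma in these 4 comparisons, in which 3 of 25829 probes (0.0116%), 1 (0.00387%), 0 of 25640 (0%) and 0 (0%) passed, against 1133, 294, 620 and 808 at an unadjusted p below 0.05. Without experiment 1 the Retn differences were −1.08, 0.25, 0.55 and 0.11 and those of Retnla −0.90, 0.35, 0.22 and −5.03, in the order above, and none was called. The diet response of KO minus that of WT was −0.09 for Retn and 1.96 for Retnla in aorta, and −1.07 and −3.00 in muscle. In this comparison 0 probes (0%) were called in aorta and 0 (0%) in muscle, with 669 and 1056 at an unadjusted p below 0.05, and without experiment 1 the values were 1.32 and 1.25 in aorta and −0.44 and −5.25 in muscle.

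Retn was higher in aorta than in muscle. With matched arrays of each strain, diet and experiment as pairs, the log2 difference was 2.28 ± 0.46 (SE, 12 pairs), or 4.84-fold, with a limma adjusted p of 0.00201 over all 27346 probes tested. The median of all probes was −0.27 in this comparison, so Retn was 2.55 above it. The comparison called 15399 probes (56.3%), of which 4917 (18%) were higher in aorta, so a call was common among all probes. Each slide held 1 tissue, so the p-value over 12 pairs does not measure the spread between slides. With the slide as a random block the limma adjusted p was 0.027. Leaving out 1 experiment at a time gave 1.80 to 2.85 with paired limma adjusted p between 0.0026 and 0.0489. For Retnla, whose diet ratios on these same arrays chose the family, the tissue differences are a description: −1.50 ± 0.96 over both diets, and 0.02 without experiment 1.

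The tissue difference of Retn was then split by diet, a choice made after seeing the data, so the values by diet are a description with no test read from them. On chow it was 4.26 ± 0.64 (SE, 6 pairs), or 19.1-fold, and it was 4.52 above the median of all probes. The pairs were 3.25, 3.98 and 6.23 in WT and 5.13, 4.25 and 2.71 in KO for experiments 1, 2 and 3, and the 6 aorta arrays lay above the 6 muscle arrays without overlap, as for 1686 of 27059 probes (6.23%). On HFD the Retn difference was 0.29 ± 0.64. The chow comparison called 9476 probes (34.7%), of which 3385 (12.4%) were higher in aorta, and the HFD comparison 11441 (41.8%), of which 7235 (26.5%) were lower in aorta. Without experiment 1 the Retn values were 4.29 on chow and 1.41 on HFD. Retnla was 1.01 ± 1.36 on chow and −4.004 ± 1.36 on HFD, again as a description, and 2.55 and −2.51 without experiment 1.

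The difference of the diet response between tissues, aorta minus muscle, was −4.45 in WT and −3.48 in KO for Retn, and −7.49 and −2.54 for Retnla. Without experiment 1 the values were −3.77 and −2.01 for Retn and −8.31 and −1.81 for Retnla. In the limma fit 0 of 27346 probes (0%) were called for WT and 0 (0%) for KO, with 1489 and 1848 at an unadjusted p below 0.05, and nothing is read from this for the family, since the ratios that chose it are part of these values.

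**Figure D3:**
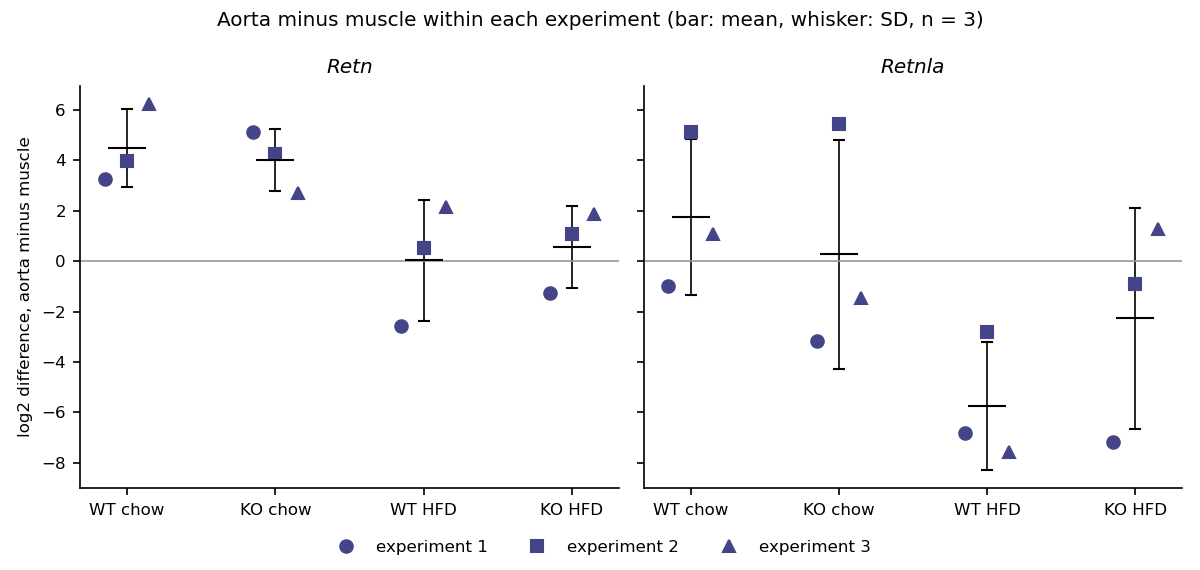
Log2 difference between aorta and muscle (y axis) for Retn and Retnla, 1 point per matched pair of arrays, by diet and strain, with a bar at the mean and whiskers of 1 SD (n = 3). Retn lies between 2.71 and 6.23 in the 6 chow pairs, and the HFD pairs lie around a mean of 0.29.

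Adipocyte markers differed in the same direction as Retn. Of the 15 adipocyte genes listed, 13 had a probe and 12 were tested in aorta, and all 12 had a difference below 0 on HFD in both strains, with a median of −2.93 in WT and −3.48 in KO; 0 of them were called. The summed linear signal of the list, in units of the 75th percentile of the array, was 133.9 to 441.5 on the 6 chow aorta arrays and 19.9 to 46.5 on the 6 HFD aorta arrays. In muscle it was 49.6 to 139 on chow and 29.8 to 70.2 on HFD. The aorta array with the highest sum, KO chow of experiment 1, was also the one with the highest Retn. Of the defining markers, Lep (leptin) was not well above background on any aorta array and was so on 1 muscle array, whereas Adipoq (adiponectin) was detected. The comparison of tissues called 56.3% of all probes, with 18% higher in aorta. In it, 9 of the 12 adipocyte genes were called higher in aorta, Adipoq by 1.99, and 3 lower: the lipases Lipe and Pnpla2, and Thrsp. On HFD 6 of the 12 were above 0 and 6 below.

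Other marker lists also differed with Retn in the aorta. The platelet list summed to 3.9 to 16.26 on chow and 1.20 to 2.66 on HFD, without overlap, and 4 of 5 tested platelet genes were below 0 in WT (median −1.18) and 5 of 5 in KO (median −2.77). The brown adipocyte genes were below 0 in 5 of 5 cases in both strains (medians −1.002 and −1.55), as were 14 of 14 endothelial genes (medians −0.43 and −0.82). The 10 fibroblast genes were all above 0 in both strains (medians 0.34 and 0.83). No gene of these 4 lists was called for diet in the aorta. The part of adipocyte RNA, or that of the other cell types, in the Retn differences was not tested.

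**Figure D4:**
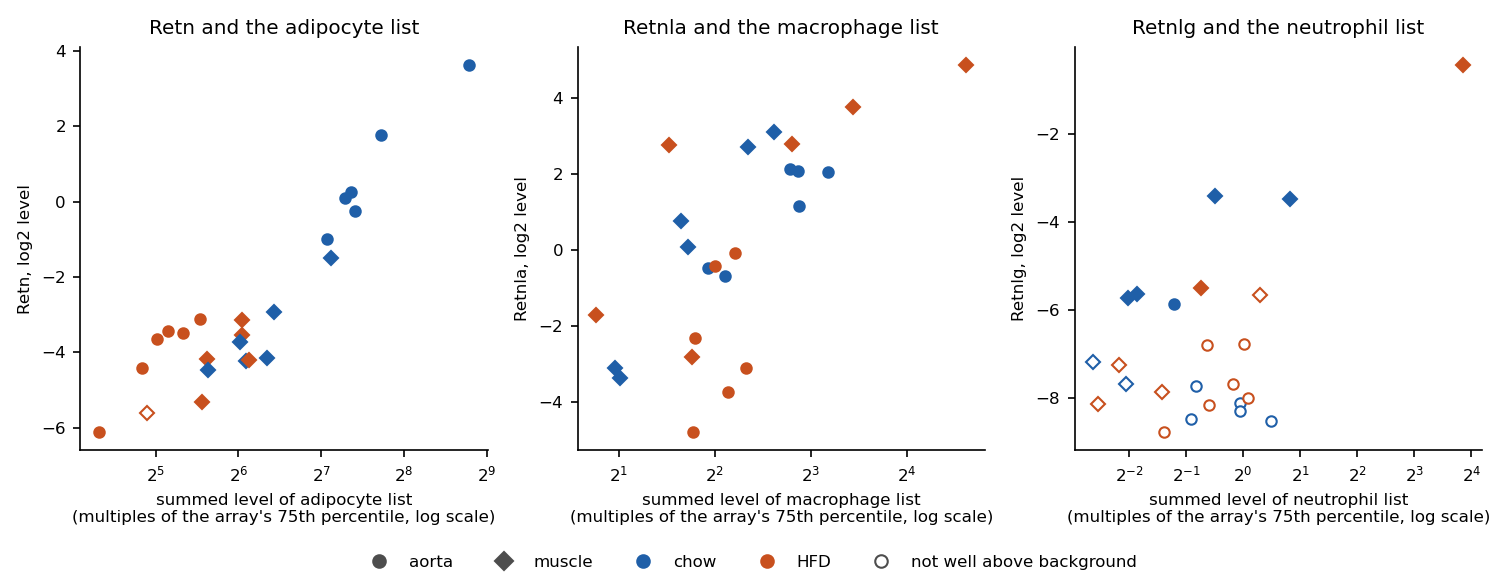
Log2 level of a member (y axis) against the summed linear signal of a marker list on a log axis in units of the 75th percentile (x axis), 1 point per array: Retn with the adipocyte list, Retnla with the macrophage list and Retnlg with the neutrophil list. The chow aorta arrays lie at an adipocyte sum of 133.9 or more, and 1 WT HFD muscle array stands apart at a neutrophil sum of 14.53.

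The macrophage list had a probe for 14 of 15 genes, and its summed signal was 3.82 to 9.09 on chow and 3.43 to 5.03 on HFD in aorta. In muscle it was 1.94 to 6.14 on chow and 1.70 to 24.6 on HFD, the highest being the KO HFD array of experiment 1, on which Retnla was also highest. In WT aorta 9 of 12 tested macrophage genes had a difference below 0 on HFD (median −0.97) and in KO aorta 6 of 12 (median 0.08). In muscle 8 of 10 had one above 0 in WT (median 1.90) and 9 of 10 in KO (median 0.87), where Retnla had both signs. Of genes that mark alternatively activated macrophages, 5 of 6 were below 0 in WT aorta (median −1.51) and 5 of 6 in KO aorta (median −0.68), and 5 of 7 were above 0 in WT muscle (median 1.80) and 4 of 7 in KO muscle (median 0.37). Adgre1 (the macrophage antigen F4/80) and Ptprc (CD45, which the sort selected against) were each well above background on 10 of 12 aorta arrays, and Arg1 and Ccl22 on 0 of 12. The part of macrophage RNA in the Retnla values was not tested.

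Retnlg was near background on most arrays and high on 1. The WT HFD muscle array of experiment 3 gave −0.44, whereas the other 11 muscle arrays lay between −8.14 and −3.41 and the single aorta array well above background, KO chow of experiment 3, gave −5.87. The other muscle arrays on which it was well above background were WT chow (−3.41 and −5.74) and KO chow (−3.48 and −5.63) of experiments 1 and 2, and KO HFD of experiment 1 (−5.51). HFD minus chow had both signs in WT muscle (−4.46, −1.52 and 6.74) and in KO aorta. It was below 0 in each experiment in KO muscle (−2.03, −0.03 and −0.45) and above 0 in WT aorta (1.35, 0.32 and 1.73). KO minus WT was above 0 in each experiment in chow aorta (0.40, 0.19 and 2.65) and had both signs in the other groups. Each of these comparisons included arrays not well above background. On the array with the high value the neutrophil list summed to 14.53, against at most 1.77 on the other muscle arrays and 1.40 on the aorta arrays. There 6 of 12 neutrophil genes were at their highest of the 12 muscle arrays: the calprotectin subunits S100a8 (1.12, others at most −2.08) and S100a9 (3.43, others at most −0.34), and the granule genes Ngp (−2.67, at most −7.67), Camp (−0.26, at most −5.15), Ltf (−1.81, at most −3.79) and Mmp8 (−3.16, at most −6.98). Mpo (−5.14) and Elane, granule genes of early neutrophil precursors, were not well above background there, nor were Csf3r (−6.65) and Cxcr2 (−5.98). Mpo was well above background on the other 11 muscle arrays and lowest on this one. Mmp9 and Il1r2 were well above background there but ranked 4 and 6 of 12. Of 14 macrophage genes 1, Cd14, was highest on that array. Retnlb was well above background on KO chow aorta of experiment 1 (−4.46) and WT HFD aorta of experiment 3 (−5.34), and on the other 22 arrays it was not. The list of intestinal goblet cell genes summed to between 0.417 and 2.61 in aorta and between 0.156 and 0.650 in muscle.

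The genes that act around the family were read from lists. Of the interleukin-4, interleukin-13 and STAT6 axis that induces Retnla, 12 of 13 genes were tested; the median difference between HFD and chow was 0.02 in WT aorta, 0.11 in KO aorta and 0.28 in both strains' muscle, and 0 were called. Between tissues, where 56.3% of all probes were called, 3 genes were called higher in aorta. Among them were Socs1 (1.46), an inhibitor of cytokine signalling, and Il33 (3.69), an alarmin that drives type 2 responses. A further 6 were lower in aorta, among them the receptor chain Il4ra (−1.05) and the kinase Jak3 (−1.37). Stat6 itself was −0.03 (limma adjusted p = 0.782).

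Of 9 adipogenic transcription factors, 2 were higher in aorta, among them Cebpb (2.11), and 2 lower, among them Pparg (−0.57), the master regulator of adipocyte formation. Of 7 proposed receptors and binding partners of the family 5 were tested, and 3 were higher in aorta: Tlr4 (1.56), a receptor proposed for resistin, its co-receptor Cd14 (0.72) and the proteoglycan Dcn (1.79). Cap1 (−1.13), an adenylyl cyclase-associated protein reported to bind human resistin, was lower. Of 9 genes that resistin is known to act on in endothelial cells, 6 were higher in aorta: the adhesion molecules Vcam1 (1.56), Icam1 (0.76) and Sele (0.99), the chemokine Ccl2 (3.27), the pentraxin Ptx3 (5.52) and Socs3 (0.39). The vascular endothelial growth factor receptors Kdr (−1.02) and Flt1 (−1.19) were lower and Edn1 (endothelin-1) was 0.03. Of 15 other adipokines 12 were tested and 8 were higher in aorta, among them Adipoq (1.99), Cfd (1.58) and Rbp4 (6.55), and 2 lower, Apln (−2.02) and Tnf (−1.37). Markers of other cell types also differed between the tissues: 10 of 10 fibroblast genes, Dcn among them, were called higher in aorta (median 4.16), 13 of 14 endothelial genes lower (median −1.06) and 10 of 10 muscle fibre genes lower (median −6.65), and their part in these values was not tested. The tissue comparison called 56.3% of all probes, and in the diet comparisons 0 genes of these 5 lists were called.

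The genes whose levels followed each member most closely were ranked by Pearson's r over the arrays of a tissue, as a description, among 13890 genes in aorta and 13540 in muscle. For Retn in aorta they were Cidec (0.98), a lipid droplet protein, Acsm3 (0.98), Adipoq (0.97), Chchd10 (0.96) and Cdo1 (0.96), and in muscle Cidec (0.93), Adipoq (0.90), Glul (0.90), Cfd (0.89) and Apoc1 (0.88). For Retnla in aorta they were C1qc (0.94), a complement subunit made by macrophages, Ccl6 (0.89), Folr2 (0.87), Slc23a3 (0.87) and Cd209f (0.87). In muscle they were Cd209f (0.95), Ms4a6d (0.95), Ccl24 (0.94), Trdn (0.92) and Neb (0.92), the last pair being genes of the muscle fibre. Cidec and Adipoq stood among the first 5 for Retn in both tissues, and Cd209f for Retnla. These values share arrays, slides and, for Retn, the split between diets. Retn and Retnla themselves had r = 0.61 over 12 aorta arrays and 0.27 over 12 muscle arrays.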

How the data were processed

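Endothelial cells were profiled on 24 one-colour Agilent Whole Mouse Genome arrays. Per the file headers, the deposited intensity values are background-subtracted processed signals from Agilent Feature Extraction 10.5.1.1; the submitters' processing notes name version 9.1. The authors also deposited a table of normalized log2 values, which differed from the values used here by 1 constant per array and served as an alternative. Control and outlier spots were left out, the log2 of each signal was set against the 75th percentile of its array, and spots of a probe were averaged. A probe was tested if it was well above background, on at least 0.5 of its spots, on every array of at least 1 group. Tests used limma 3.58.1 in R 4.3.3 with Benjamini-Hochberg adjustment over all probes at 0.05: diet with strain and experiment as blocks, strain between group means, and tissue with matched arrays as pairs. Arrays of the same experiment deviated together (median r of deviations from the group means 0.21 in aorta, 0.33 in muscle). The replicates were separate pools of mice, and p-values of the diet and strain comparisons measure the spread between these pools. Those of the paired tissue comparison do not measure the spread between slides, since each slide held 1 tissue. On simulated data with 39409 probes, 11% of changes of log2 2 and 60% of log2 4 were recovered for HFD against chow in WT aorta, and 61% and 89% for aorta against muscle on chow. The simulation changed few probes and drew independent noise with no slide effect and no other group difference. Its rates may not hold for the data. The number of arrays limits the precision. Members and the 18 gene lists were chosen with earlier results of these data known. The genes named were the members, the 5 most correlated genes per tissue and genes of the lists. Alternatives were normexp background correction, the deposited table, other filters, blocks and leaving out each experiment.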

Additional observations from a re-analysis of the deposited data

Results flagged for a closer look

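The diet response of Retnla in WT mice differed between the tissues by −7.49 on the log2 scale (aorta minus muscle, SE 1.83). It was selected for a closer look because Retnla was lower on HFD in all 3 aorta experiments and higher in all 3 muscle experiments. The same ratios chose the family, so the value is a description, with no test read from it. Without experiment 1 it was −8.31.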

How the results depend on the processing

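Of 316 values computed for 30 member results under alternatives, 299 kept their direction and their side of the threshold. In the diet and strain comparisons at most 3 probes were called, so staying uncalled there was nearly fixed in advance. The count is therefore no measure of how robust those results are. With normexp background correction the Retnla difference between KO and WT in chow muscle was −0.0106. The HFD difference between aorta and muscle for Retnla is a description, and no test is read from it. Its value was −4.004 in the fit used here and with no filter on dim probes, and −3.75 with the deposited table. The number of members called between aorta and muscle over both diets was 1, where 15399 of 27346 probes (56.3%) were called. It was 2 without the filter, when Retnlg also passed and 14683 of 41174 probes were called. It was 0 when a signal was required on every array, which left Retn out and called 12012 of 19430 probes. With calls this common among all probes, these counts say nothing particular about the family. With slide as a random replicate block, 7716 probes were called between aorta and muscle, 4772 on chow and 6950 on HFD. A fit with no replicate block left Retn at 2.28 between aorta and muscle and called. Of the calls between tissues, 31.9% were higher in aorta, and 56.4% with the deposited table.

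Leaving out 1 experiment at a time moved the diet response of KO minus WT in aorta between −1.12 and 1.32 for Retn and between −0.16 and 4.78 for Retnla. HFD minus chow moved between −0.79 and 0.13 for Retn in WT muscle and between −0.97 and 1.35 for Retnla in KO muscle. KO minus WT moved between −1.08 and 2.23 for Retn in chow aorta, and for Retnla between −1.43 and 2.57 in HFD aorta and between −0.33 and 0.22 in chow muscle. Aorta minus muscle moved for Retnla between −3.10 and 0.0233 over both diets, −1.13 and 2.55 on chow and −5.07 and −2.51 on HFD, and for Retn between −0.56 and 1.41 on HFD. The probes called between aorta and muscle ranged from 3042 to 5703 on chow and from 6032 to 7677 on HFD. The causes were not tested. Retnlb and Retnlg did not pass the filter on dim probes and entered no test with it.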
